A study of Mus musculus with 4 samples.

Results

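Genes that make, break down or consume NAD were followed in sorted cells of the mouse ovary, namely Cd38, Bst1, Nampt, Nmnat1, Naprt, Parp1 and Sirt1. They were taken by symbol, as 7 of the 31053 genes of the count matrices, each present as 1 row. The samples were ovarian cell suspensions of virgin wild-type C57BL/6J females, digested with collagenase IV and DNase I and sorted as CD45+CD11b+, the surface phenotype of myeloid cells. Groups were mice of 15 months and mice of 3 months. Each age was sorted and sequenced as a single droplet library of 3' ends that mixed 3 hashtagged pools of animals. The pools are the replicates here (n = 3 per age). An effect of age and an effect of the library it was sequenced in cannot be told apart, and p-values reflect how much pools of 1 library vary. The design text gives 2 mice per pool; the protocol instead gives 6 young mice in pairs and 5 old mice, with 1 old pool of a single mouse that is not identified, with ages of 14 to 17 and 2 to 3 months.

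NAD is a redox cofactor and also a substrate that several enzymes use up. Mammalian cells rebuild most of it from nicotinamide, through NAMPT and then an NMNAT enzyme, or from nicotinic acid through NAPRT. CD38 and its paralogue BST1 (CD157) are ectoenzymes that split NAD and its precursors and form cyclic ADP-ribose; CD38 is also a surface antigen of B cells, plasma cells, activated lymphocytes and macrophages. PARP1 uses NAD to attach ADP-ribose chains to proteins at DNA breaks, and SIRT1 uses it to remove acetyl groups from proteins.

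The filters kept 6281 cells, 4100 from 15 months and 2181 from 3 months. Cells numbered 767, 2437 and 896 in the 15-month pools, against 725, 479 and 977 in the 3-month pools, so pool 2 holds most of the older cells. Median depth was 7692 UMIs (unique molecular identifiers, counted RNA molecules) per cell at 15 months and 7633 at 3 months. Of all barcodes, 3 occurred in both libraries. Clustering without the NAD genes gave 17 cell classes, of which 13 could be named from markers; 9 classes had at least 10 cells in every pool and were tested for age. The class named theca or luteal cell-like, from 4 such markers among its top 10 genes, also scored 6.74 on epithelial markers, above its 6.07 on those of its name. Not every class matched the sort: Ptprc, which encodes CD45, had a UMI in 9.40% of the theca or luteal cell-like cells and 13.2% of the endothelial cell-like cells. Itgam, which encodes CD11b, had one in 31.0% of the B cell-like and 35.5% of the NK cell-like cells, against 58.1% of the macrophage-like cells. These shares were not corrected for median depth, which was 6143, 3553 and 9569 UMIs in that order. Relative to the UMIs of each class, Itgam had 70.6, 151 and 120 CPM (defined below). By that measure NK cell-like cells were not below macrophage-like cells. Lower Itgam shares were seen in cluster 10 (13.1%) and mature dendritic cell-like cells (9.52%), at median depths of 14258 and 9785 UMIs.

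Cd38 and Bst1 lie side by side on chromosome 5 of GRCm38. Bst1 (ENSMUSG00000029082) spans chr5:43818885-43843986 and Cd38 (ENSMUSG00000029084) spans chr5:43868553-43912375, both on the plus strand, with 24566 bases and 0 annotated genes between them. The other genes lie apart: Nampt (ENSMUSG00000020572) at chr12:32819545-32853349, Parp1 (ENSMUSG00000026496) at chr1:180568924-180601254, Nmnat1 (ENSMUSG00000028992) at chr4:149467572-149485202, Naprt (ENSMUSG00000022574) at chr15:75890956-75894481 and Sirt1 (ENSMUSG00000020063) at chr10:63319005-63381704. Reads can be shared where genes overlap on the same strand, which applies to Nampt with Gdap10 and to Naprt with Eef1d. Cd38, Bst1, Nmnat1 and Sirt1 overlap only genes of the opposite strand.

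Promoter sequence sets Cd38 apart from the 4 other members with a RefSeq entry (GRCm38.p6; the 250 bases before the annotated start). The Cd38 window at chr5:43868559-43868808 held 1 CpG, and 7.87% of 32851 such windows held fewer. Parp1 had 16, Nmnat1 24 and 23 at its 2 starts, Nampt 27 and Sirt1 39, against a median of 6 over all windows. A match of CACGTG on either strand was in the Parp1 and Sirt1 windows and in 6.02% of all windows. GGGCGG was in all of these members' windows but that of Cd38, and in 32.7% of all windows; TATAAA was in none of them, and in 12.4% of all windows. The sequences below are those of Cd38 and Nampt, with each CpG in capitals, 5′ to 3′ on the plus strand. A link between CpG count and the spread of RNA over classes was not tested. The Cd38 window lies within the first exon of a GENCODE transcript that starts earlier, so the 30 bases around its single CpG are given, chr5:43868723-43868752, and for Nampt the whole window, chr12:32820085-32820334. The windows of Nampt and Sirt1 (chr10:63339036-63339285) also lie inside the gene spans given above. They precede a RefSeq start but not the outermost annotated start of the gene.
Cd38: agtccagtcacctcCGtggaactttggagc
Nampt: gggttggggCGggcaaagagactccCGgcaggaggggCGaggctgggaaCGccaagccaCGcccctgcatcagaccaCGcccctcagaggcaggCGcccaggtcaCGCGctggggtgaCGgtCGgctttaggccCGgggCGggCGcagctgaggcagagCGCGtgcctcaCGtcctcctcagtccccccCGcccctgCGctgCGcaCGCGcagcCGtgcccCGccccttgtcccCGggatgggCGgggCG

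Levels are given below as CPM, the UMIs of a gene relative to 1e6 UMIs of the cells of a class. For all kept cells and the 9 tested classes the library sizes were scaled by the trimmed mean of M-values (TMM) within that class; for smaller classes and sub-clusters they are plain totals. Values run over pools 1, 2 and 3 of each age.

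**Figure D1:**
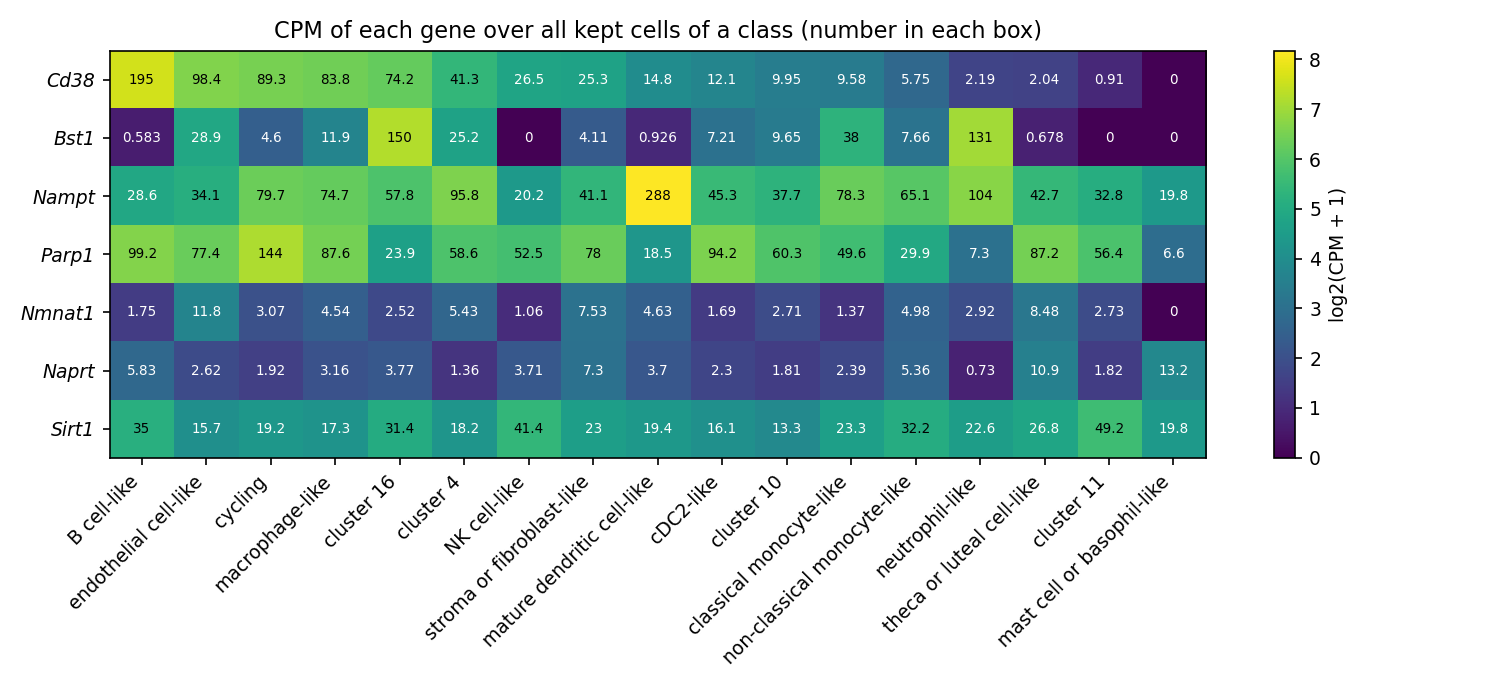
Level of the 7 genes (rows) in the 17 cell classes (columns) over all kept cells, as CPM printed in each box, with colour for log2(CPM + 1). Cd38 is highest in B cell-like, endothelial cell-like, cycling and macrophage-like cells, Bst1 in cluster 16 and neutrophil-like cells, and Nampt in mature dendritic cell-like cells, while Nmnat1 and Naprt are low throughout.

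Cd38 RNA was concentrated in few classes. Over all their cells, B cell-like cells had 195 CPM, endothelial cell-like cells 98.4 CPM, cycling cells 89.3 CPM and macrophage-like cells 83.8 CPM. At the other end, mast cell or basophil-like cells had 0 of the 2807 Cd38 UMIs, cluster 11 had 1, neutrophil-like cells 3 and theca or luteal cell-like cells 6. Because macrophage-like cells were many, they held 1459 UMIs, 52.0% of all Cd38 UMIs. B cell-like cells held 11.9%, cluster 4 held 10.8% and cycling cells 8.30%. The small cluster 16 held 2.10%, as 59 Cd38 UMIs in 53 cells. Cluster 4 was left unnamed and was led by Arg1, Spp1, Gpnmb, Ccl7, Ccl24 and Fabp5. The cycling class is named for a state and not for a cell type. Its 10 macrophage markers summed to 15585 to 30720 CPM over the pools, against 39199 to 52593 CPM in macrophage-like cells.

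Among the 9 tested classes, macrophage-like cells had the highest Cd38 level, at 85.7 ± 18.7 CPM (SD, n = 6 pools). Next came cluster 4 at 37.3 ± 26.9 CPM, NK cell-like cells at 25.7 ± 16.7 CPM and stroma or fibroblast-like cells at 22.8 ± 10.4 CPM. In a fit over all classes with the pool as a block and 1 scaling for all, macrophage-like cells were above each of the 8 others, by log2 1.49 ± 0.28 (SE) against cluster 4 (edgeR quasi-likelihood test, adjusted p = 2.89e-05) up to 6.17 ± 0.55 against theca or luteal cell-like cells. Cluster 4, NK cell-like and stroma or fibroblast-like cells, neighbours in that order, did not pass the test against the next one down (adjusted p = 0.132 and 0.808). Stroma or fibroblast-like cells passed it against cDC2-like cells (conventional dendritic cells, 8.49 ± 9.02 CPM, adjusted p = 0.0483). Below that, classical monocyte-like cells had 4.42 ± 7.09 CPM, non-classical monocyte-like cells 3.95 ± 5.08 CPM, theca or luteal cell-like cells 1.20 ± 1.86 CPM and neutrophil-like cells 0.842 ± 2.06 CPM, and no neighbour in this stretch passed the test. Cd38 passed in 26 of the 36 class pairs (72.2%), beside 52.2% of all gene-by-pair tests; macrophage-like cells differed from the others in 47.5% of theirs.

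Within the macrophage-like class, Cd38 was uneven between cells. Of 1600 cells, 587 (36.7%) had at least 1 Cd38 UMI, 85 had 5 or more and the highest had 15. After each cell was thinned to 2000 UMIs the share was 14.8% at 15 months (exact 95% binomial interval 12.7 to 17.2, 990 cells) and 12.4% at 3 months (9.67 to 15.5, 526 cells). Unthinned shares were 41.9% and 27.6%, at median depths of 10600 UMIs at 15 months and 7848 UMIs at 3 months. In neutrophil-like cells the thinned share at 15 months was 0.312% (median depth 2218 UMIs), and in cluster 11 it was 0.725% (5244 UMIs). These classes were picked for their few Cd38 UMIs here, so they are no independent background. The binomial intervals take the cells of all pools of an age together. They cover counting error only and not the spread of pools. A finer clustering of all cells spread the class over several clusters. Its 736 cells in a cluster led by Ccl12 and Vcam1 had 129, 114 and 98.2 CPM at 15 months, against 113, 121 and 72.3 CPM at 3 months. Its 371 cells in a cluster led by Ccl8 and Cbr2 had 121, 79.9 and 35.6 CPM at 15 months, against 65.0, 178 and 29.4 CPM at 3 months. Its 353 cells in a cluster led by Clec4a2 and Ccr2 had less Cd38, at 25.7, 62.2 and 32.1 CPM against 30.8, 0 and 25.0 CPM. The ages overlapped in all 3 of these sets. Its 76 cells in a cluster led by Arg1 and Ccl7 had 82 UMIs at 15 months and 0 at 3 months, with 74 of the 82 in pool 2.

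In macrophage-like cells the Cd38 levels of the ages overlapped. These cells had 104, 90.9 and 70.1 CPM in the 15-month pools, against 91.2, 102 and 56.2 CPM in the 3-month pools. The ranges of the ages overlap, and in each age pool 3 was lowest. The log2 difference was 0.13 ± 0.22 (adjusted p = 0.919); 0.0819% of the genes tested in this class passed at 0.05. B cell markers in these cells summed to 266, 289 and 317 CPM at 15 months, against 199, 182 and 202 CPM at 3 months, without overlap. Without pool 3 of 3 months the difference was -0.13, and in cluster 7, the smaller of the 2 clusters that make up the class, it was -0.20.

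**Figure D2:**
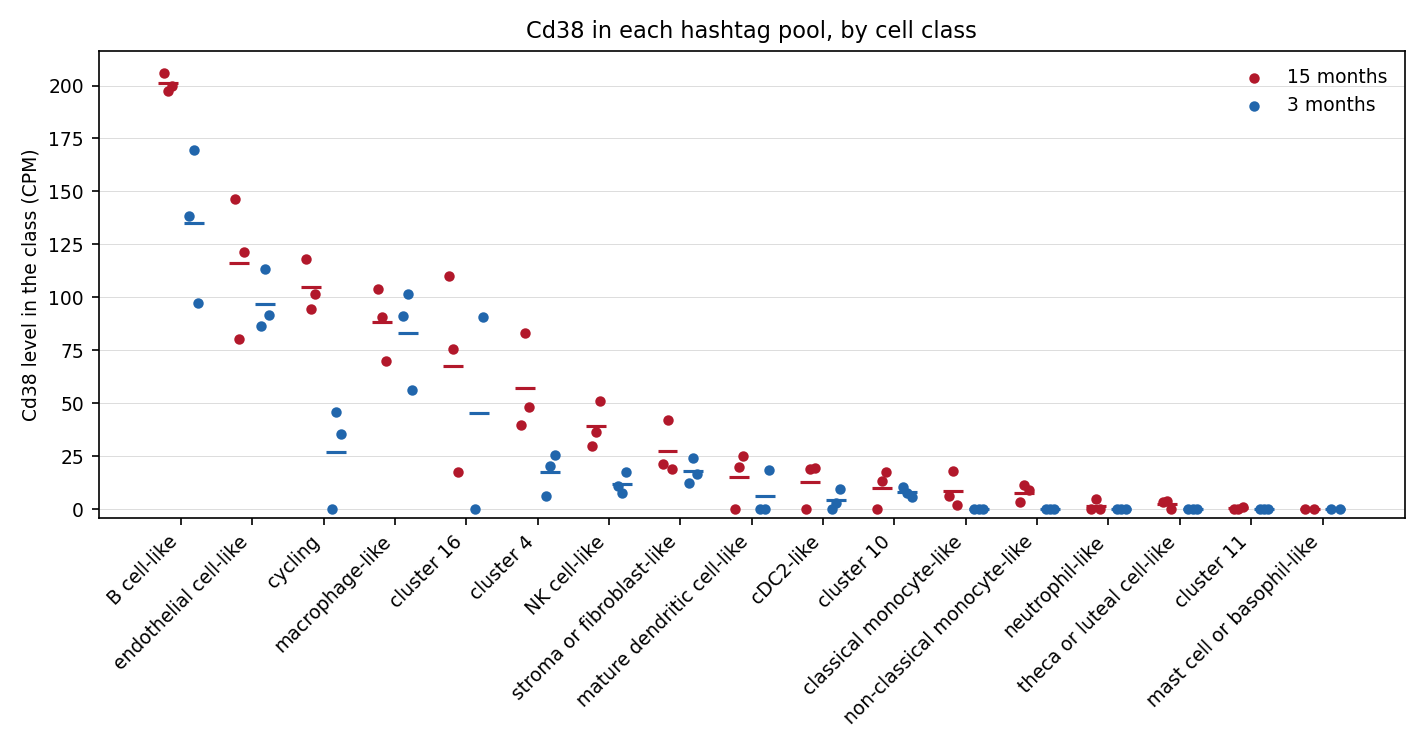
Cd38 level (CPM, vertical axis) in each pool of 15 months (red, left) and 3 months (blue, right) for the cell classes along the horizontal axis; points are pools and lines are means over pools. The ages overlap in macrophage-like cells, at 70.1 to 104 and 56.2 to 102 CPM, and stand apart in cluster 4, at 40.0 to 83.1 and 6.10 to 25.6 CPM.

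In all kept cells together, Cd38 was higher at 15 months in every pool. It had 51.3, 60.1 and 47.3 CPM in the 15-month pools, against 24.3, 30.9 and 28.4 CPM in the 3-month pools. The means were 52.9 ± 6.54 CPM at 15 months and 27.9 ± 3.33 CPM at 3 months (SD, n = 3 each). The log2 difference of 0.93 ± 0.13 missed the threshold (adjusted p = 0.0570), where 0.224% of genes tested were called; 13.6% of genes had all 15-month pools above all 3-month pools. With no filter on low counts the adjusted p was 0.0105, and with DESeq2 it was 5.06e-05. Both of these fits also called more genes over all than the main test, as the closing section gives.

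The make-up of the pools moved with this difference. Counted as plain CPM of the whole pool, all kept cells averaged 54.9 at 15 months and 26.8 at 3 months. B cell-like cells supplied 10.4 of this at 15 months and 0.909 at 3 months, a difference of 9.48. Macrophage-like cells supplied 24.7 and 17.6 (difference 7.08), cycling cells 5.40 and 0.522 (4.87), and cluster 4 supplied 5.52 and 3.13 (2.39). B cell-like cells gave 5.13% of the UMIs of the 15-month pools and 0.657% of those of the 3-month pools, from 234 and 18 cells. The share of macrophage-like cells was 28.4% at 15 months and 23.5% at 3 months, that of cycling cells 5.26% and 1.66%, and that of cluster 4 was 10.5% and 22.3%. With B cell-like cells left out, Cd38 had 42.2, 57.1 and 41.1 CPM in the 15-month pools, against 21.9, 29.0 and 27.2 CPM in the 3-month pools (log2 0.74, adjusted p = 0.140). With macrophage-like cells left out, it had 43.1, 44.5 and 38.9 CPM at 15 months, against 6.88, 15.1 and 14.3 CPM at 3 months (log2 1.67 ± 0.25, adjusted p = 0.0717). The ages stayed apart in both subsets, and the difference was larger in the second.

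**Figure D3:**
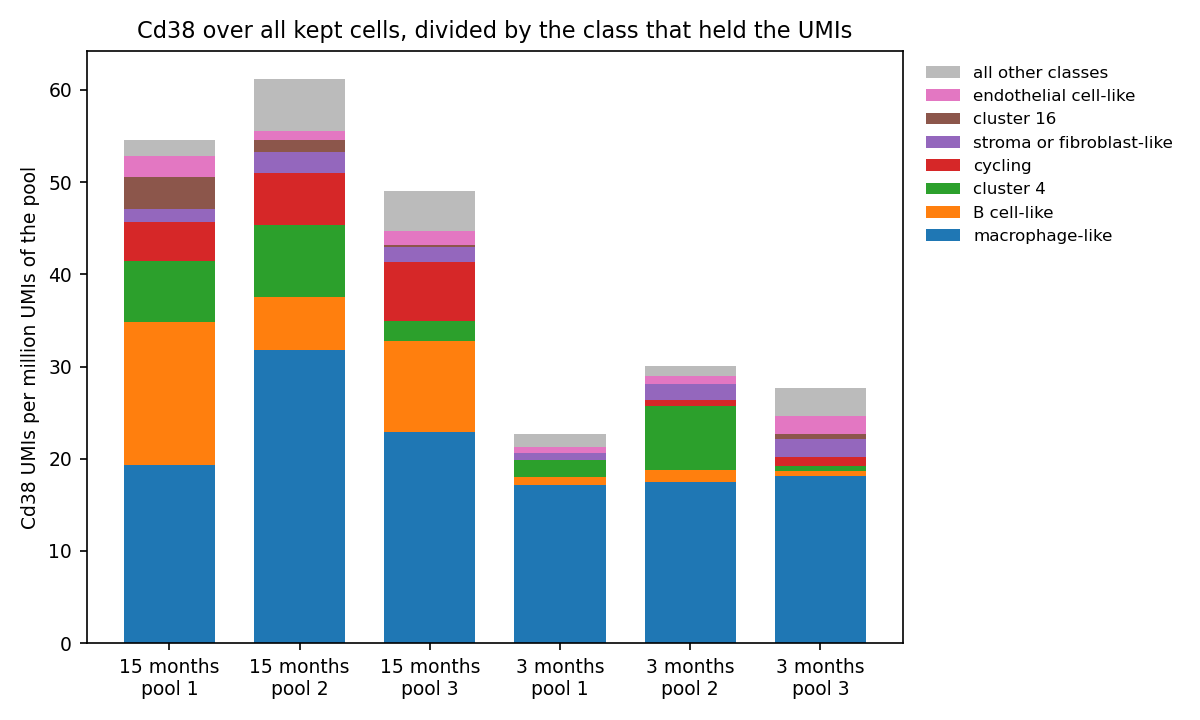
Cd38 level of each pool (UMIs relative to 1e6 UMIs of the pool, vertical axis), stacked by the cell class that supplied them, for the 3 pools of 15 months (left) and of 3 months (right). The B cell-like and cycling segments are taller at 15 months (means 10.4 and 5.40) than at 3 months (0.909 and 0.522), while the macrophage-like segment is the largest on average in both ages (24.7 and 17.6).

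Cluster 4 showed the largest Cd38 difference among the 3 tested classes in which Cd38 passed the low-count filter. It had 40.0, 83.1 and 48.5 CPM in the 15-month pools, against 6.10, 20.6 and 25.6 CPM in the 3-month pools. All older pools were above all younger ones, as for 10.8% of genes in this cluster. The log2 difference was 2.08 ± 0.45 with an adjusted p of 0.0521, beside 1.13% of genes called. The adjusted p was 0.0142 with DESeq2, 1.52e-08 with no filter on low counts, 0.0359 without pool 3 of 3 months and 0.0498 without cells rich in haemoglobin RNA, but 0.411 under a stricter cell filter, where the log2 difference was 1.30. Leaving out pools moved it between 1.48 (without pool 1 of 3 months) and 2.72 (without pool 2 of 3 months). The DESeq2 fit and the fit with no filter also called more genes over all in this cluster than the main test. The thinned share of cells with a Cd38 UMI was 10.5% at 15 months (7.01 to 14.9) and 2.86% at 3 months (1.24 to 5.55). These intervals take the cells of all pools together and do not cover the spread of pools. Cd38 UMIs numbered 38, 200 and 18 in the 15-month pools and 11, 32 and 5 in the 3-month pools.

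In the finer clustering of all cells, 303 of the 545 cells of cluster 4 fell in a cluster led by Arg1, Ccl7 and Ccl24, and 191 in a cluster led by Gpnmb, Atp6v0d2 and Fabp5. The Arg1-led cells had 0, 114 and 22.6 CPM in the 15-month pools, against 1.58, 4.21 and 0 CPM in the 3-month pools; pool 2 supplied 126 of their 128 Cd38 UMIs at 15 months. The Gpnmb-led cells had 44.4, 59.5 and 57.3 CPM at 15 months, against 48.6, 47.9 and 29.9 CPM at 3 months, with overlap. The make-up of cluster 4 also moved with age. The Gpnmb-led cells held 2277693 UMIs of all genes at 15 months and 862542 at 3 months, and the Arg1-led cells 1273088 and 2001140. The part of this shift in the Cd38 difference of cluster 4 was not tested.

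Markers of other cell types were followed in cluster 4. The summed level of the 10 macrophage markers was 40798, 27616 and 24032 CPM at 15 months, against 9531, 18092 and 36312 CPM at 3 months, and the pools overlapped. That of the 8 B cell markers was 54.2, 77.1 and 33.7 CPM at 15 months, against 19.8, 30.9 and 15.6 CPM at 3 months, so the ages did not overlap, as for Cd38. In B cell-like cells the same sum was 7865 to 18038 CPM. The part of either in the Cd38 difference was not tested.

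NK cell-like cells, named for lymphocytes of the innate arm but including a part with T cell genes, also separated the ages, at low counts. They had 30.1, 36.3 and 51.3 CPM at 15 months from 41 UMIs, against 11.1, 7.71 and 17.5 CPM at 3 months from 9 UMIs, and Cd38 did not pass the low-count filter there. Of the genes that did pass it, pools separated in this direction for 9.14%, and 0.284% were called (11 genes, or 82 with the hashtag number as a replicate block, with 0 members in either fit). That share therefore does not cover genes as sparse as Cd38 here. The thinned share of cells with a UMI was 7.78% at 15 months (4.82 to 11.8) and 1.49% at 3 months (0.307 to 4.28). Here too the intervals do not cover the spread of pools. In the finer clustering, 326 of these cells fell in a cluster led by Gzma and Prf1, with 15.7, 15.3 and 40.1 CPM at 15 months against 4.22, 0 and 10.1 CPM at 3 months, on 12 and 3 UMIs. The other 158 fell in a cluster led by Cd3g and Cxcr6, with T cell genes, and had 57.7, 74.0 and 47.7 CPM at 15 months against 34.0, 65.8 and 26.2 CPM at 3 months, on 29 and 6 UMIs. The ages overlapped in the second set. It held 477792 UMIs of all genes at 15 months and 188694 at 3 months, and the Gzma-led set 659432 and 558849. The part of this make-up in the Cd38 values was not tested. B cell markers in NK cell-like cells summed to 67.0, 80.2 and 151 CPM at 15 months, against 64.2, 79.7 and 118 CPM at 3 months, and overlapped.

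Both kinds of monocyte-like cell had Cd38 UMIs at 15 months and none at 3 months. Classical monocyte-like cells had 6.24, 18.02 and 2.25 CPM in the 15-month pools (28 UMIs) and 0 CPM in each 3-month pool, where 3 UMIs over the age would be 5.41 CPM. Non-classical monocyte-like cells had 3.31, 11.5 and 8.88 CPM at 15 months (15 UMIs) and 0 CPM in each 3-month pool, where the same limit is 4.75 CPM. At 15 months 3 UMIs would be 1.39 CPM in the classical and 1.66 CPM in the non-classical class. Such separation was seen for 7.55% of genes in the classical and 8.9% in the non-classical class, and 0.312% and 0.315% were called. These shares cover genes that passed the low-count filter, which Cd38 did not in either class. For the classical class the calls were 11 genes, or 34 with the hashtag number as a replicate block, with 0 members in either fit. B cell markers in classical monocyte-like cells summed to 198, 239 and 191 CPM at 15 months, against 93.0, 86.7 and 110 CPM at 3 months, without overlap; in non-classical monocyte-like cells the ages overlapped, at 172, 225 and 208 CPM against 156, 202 and 284 CPM. Their part in the Cd38 values was not tested. These classes numbered 95 and 167 cells at 3 months, and the older pools' values lie on both sides of the 3-month limits.

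In the remaining classes the ages overlapped or the younger cells were few. Stroma or fibroblast-like cells had 21.6, 42.3 and 19.1 CPM at 15 months, against 12.6, 24.4 and 16.9 CPM at 3 months (log2 0.76 ± 0.40, adjusted p = 0.454; 0.233% of genes called). In this class the 10 macrophage markers summed to 11708, 18678 and 14491 CPM at 15 months, against 13495, 7068 and 12420 CPM at 3 months. The same sum was 39199 to 52593 CPM in macrophage-like cells. Ptprc had a UMI in 39.4% of the stroma or fibroblast-like cells. The part of macrophage RNA or cells in the Cd38 level of this class was not tested. cDC2-like cells had 0, 19.0 and 19.4 CPM of Cd38 against 0, 2.84 and 9.68 CPM. B cell-like cells, a known site of CD38 in the mouse, had 206, 198 and 200 CPM at 15 months from 319 UMIs, against 138, 170 and 97.6 CPM at 3 months from 16 UMIs in 18 cells, and were not tested. Cycling cells had 118, 94.5 and 101 CPM at 15 months, against 0, 45.7 and 35.6 CPM at 3 months (222 and 11 UMIs). Endothelial cell-like cells overlapped, with 146, 80.2 and 121 CPM at 15 months against 86.4, 113 and 91.6 CPM at 3 months.

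The age difference of Cd38 was compared between macrophage-like cells and the 4 classes with Cd38 UMIs at both ages. It was larger by log2 2.10 ± 0.50 in cluster 4 (adjusted p = 0.161), 1.38 ± 0.54 in NK cell-like cells (adjusted p = 0.612), 1.30 ± 0.79 in cDC2-like cells (adjusted p = 0.925) and 0.58 ± 0.39 in stroma or fibroblast-like cells (adjusted p = 0.836). None passed the threshold, so a difference between classes was not shown. The shares of genes that passed were 0.191% for cluster 4, 0.0531% for NK cell-like cells, 0.0% for cDC2-like cells and 0.0639% for stroma or fibroblast-like cells.

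Bst1, the neighbouring ectoenzyme gene, had another cell pattern in most classes, though cluster 16 had both genes, with 119 Bst1 UMIs and 59 Cd38 UMIs. Its highest levels were 150 CPM in cluster 16 (53 cells led by Saa3, Prg4 and Cxcl13, with Itgam in 98.1% of cells) and 131 CPM in neutrophil-like cells. It had 0 UMIs in NK cell-like cells, cluster 11 and mast cell or basophil-like cells, and 1 UMI in B cell-like cells, where Cd38 was highest. Among the tested classes, neutrophil-like cells were above each of the 8 others, by log2 2.42 ± 0.29 against classical monocyte-like cells (adjusted p = 1.06e-09) or more; neutrophil-like cells differed in 62.1% of all their gene-by-pair tests. Of 959 Bst1 UMIs, macrophage-like cells held 21.7%, cluster 4 19.4%, neutrophil-like cells 18.8%, cluster 16 12.4% and classical monocyte-like cells 11.6%. After neutrophil-like cells (177 ± 98.0 CPM, SD, n = 6 pools) came classical monocyte-like cells at 30.9 ± 12.3 CPM and cluster 4 at 23.2 ± 17.97 CPM, which did not differ beyond the spread (adjusted p = 0.371), and macrophage-like cells at 9.91 ± 4.32 CPM, below cluster 4 (adjusted p = 0.000897). Bst1 passed in 30 of 36 class pairs (83.3%).

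Across ages, Bst1 stood higher at 15 months in all kept cells without passing the test. It had 18.7, 20.6 and 16.2 CPM in the 15-month pools, against 9.77, 12.9 and 6.37 CPM in the 3-month pools. The ages did not overlap, as for 13.6% of genes with the older pools above. The log2 difference was 0.98 ± 0.24 (adjusted p = 0.125), where 0.224% of genes were called. With DESeq2, which called more genes here than the main test, the adjusted p was 0.0287. In cluster 4 it had 17.9, 45.7 and 45.8 CPM at 15 months, against 11.6, 12.8 and 5.11 CPM at 3 months (log2 1.64 ± 0.39, adjusted p = 0.0693). Here too the pools were apart, as for 10.8% of genes in this cluster, and 1.13% were called. The adjusted p was 0.0234 without pool 1 of 15 months and 0.000241 with no filter on low counts.

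Neutrophil-like cells, the class with most Bst1 per UMI among those tested, overlapped between the ages. They had 167, 140 and 176 CPM at 15 months, against 106, 368 and 106 CPM at 3 months (log2 0.08 ± 0.44, adjusted p = 1.000; 0.234% of genes called). The high value of pool 2 at 3 months comes from 9 UMIs in 13 cells. In macrophage-like cells the level was low, at 7.49, 13.4 and 16.9 CPM at 15 months against 5.47, 8.79 and 7.47 CPM at 3 months (log2 0.90 ± 0.32, adjusted p = 0.475). Non-classical monocyte-like cells had 11.6, 10.4 and 8.88 CPM at 15 months, against 0, 0 and 3.62 CPM at 3 months, on 19 and 1 UMIs, below the filter. Cluster 16 had 193, 172 and 71.3 CPM at 15 months, against 61.1 and 18.2 CPM in the 2 pools of 3 months with cells (114 and 5 UMIs).

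Nampt, the rate-limiting enzyme of NAD salvage from nicotinamide, was seen in all 17 classes. Mature dendritic cell-like cells had the most, 288 CPM over 105 cells, a class too small to test. Among tested classes the means were 98.9 ± 28.6 CPM in cluster 4, 90.7 ± 51.3 CPM in neutrophil-like cells, 90.4 ± 27.1 CPM in classical monocyte-like cells and 72.4 ± 5.25 CPM in macrophage-like cells (SD, n = 6 pools). Non-classical monocyte-like cells had 67.4 ± 17.3 CPM, theca or luteal cell-like cells 56.2 ± 32.6 CPM, cDC2-like cells 45.5 ± 10.4 CPM, stroma or fibroblast-like cells 40.2 ± 19.1 CPM and NK cell-like cells 18.6 ± 8.96 CPM. NK cell-like cells were below each of the 8 others (smallest difference log2 0.99 ± 0.35 against stroma or fibroblast-like cells, adjusted p = 0.0142). The first 3 did not differ among themselves beyond the spread (adjusted p = 0.0938 to 0.471), and macrophage-like cells were below neutrophil-like cells (adjusted p = 0.0258) but did not pass against cluster 4 (adjusted p = 0.109) or non-classical monocyte-like cells (adjusted p = 0.311). Nampt passed in 25 of 36 pairs (69.4%).

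Neutrophil-like cells were not uniform for Nampt. Finer clustering gave a large part led by Retnlg (464 cells) and a smaller part led by Il1f9, Acod1 and Il1rn (136 cells). As sums over pools, the large part had 54.1 CPM at 15 months (45 UMIs) and 61.9 CPM at 3 months (13 UMIs). The smaller part had 268 CPM at 15 months, with 67 of its 80 UMIs in pool 2. At 3 months it had 168 CPM from 5 UMIs, all in pool 1, and no cells in pool 3. For that part and age 3 UMIs would be 101 CPM.

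Nampt did not pass the age test in any class. In all kept cells it had 55.6, 70.2 and 64.8 CPM in the 15-month pools, against 79.3, 72.3 and 59.1 CPM in the 3-month pools (log2 -0.14 ± 0.14, adjusted p = 0.627). Macrophage-like cells overlapped closely, with 73.9, 78.9 and 69.4 CPM at 15 months against 77.5, 69.1 and 65.5 CPM at 3 months (log2 0.08 ± 0.14, adjusted p = 0.913). In cluster 4 the older pools were all above, as for 10.8% of genes there, with 97.8, 104 and 151 CPM against 89.3, 84.8 and 66.5 CPM (log2 0.45 ± 0.21, adjusted p = 0.302). In cDC2-like cells they were all below, with 32.0, 42.2 and 38.8 CPM against 53.1, 45.4 and 61.3 CPM (log2 -0.46 ± 0.21, adjusted p = 0.392); 9.23% of genes were below in that way, and 0.143% were called. Mature dendritic cell-like cells likewise had 114, 249 and 262 CPM at 15 months, against 313, 319 and 422 CPM at 3 months, with 26.2% of thinned cells holding a UMI at 15 months (15.8 to 39.1) and 46.5% at 3 months (31.2 to 62.3). The pools of that class held between 4 and 43 cells, and the intervals, which cover counting error over cells only, overlap.

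Nmnat1, which completes NAD synthesis in the nucleus, and Naprt, the entry point for nicotinic acid, were near the floor of these data. Nmnat1 had 250 UMIs and Naprt 207 UMIs in all kept cells, and neither passed the low-count filter in any class. Nmnat1 had 4.75, 3.95 and 3.54 CPM in the 15-month pools, against 4.79, 4.23 and 4.96 CPM in the 3-month pools (log2 -0.21 ± 0.22, adjusted p = 0.630). Naprt had 3.11, 3.80 and 3.42 CPM at 15 months, against 2.03, 3.34 and 3.90 CPM at 3 months (log2 0.16 ± 0.29, adjusted p = 0.808). The ages overlapped for both. By class, Nmnat1 reached 11.8 CPM in endothelial cell-like cells, 8.48 CPM in theca or luteal cell-like cells and 7.53 CPM in stroma or fibroblast-like cells. Naprt reached 10.9 CPM in theca or luteal cell-like cells and 7.30 CPM in stroma or fibroblast-like cells, and 13.2 CPM in mast cell or basophil-like cells, the last on 2 UMIs. In macrophage-like cells they had 4.54 and 3.16 CPM.

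Parp1 had 4407 UMIs, the most of the 7 genes. Cycling cells had the highest level, 144 CPM, with 133, 148 and 138 CPM at 15 months against 172, 107 and 138 CPM at 3 months. Among the tested classes it was highest in theca or luteal cell-like cells at 106 ± 15.3 CPM, cDC2-like cells at 95.1 ± 16.9 CPM and macrophage-like cells at 82.1 ± 16.9 CPM. The order of the first 2 depended on the scaling: with 1 scaling over all classes cDC2-like cells were above theca or luteal cell-like cells by log2 0.42 ± 0.15 (adjusted p = 0.0150). Macrophage-like and cDC2-like cells did not differ beyond the spread (adjusted p = 0.154), and macrophage-like cells passed against stroma or fibroblast-like cells (adjusted p = 0.0316). Stroma or fibroblast-like cells had 79.1 ± 12.5 CPM, NK cell-like cells 57.6 ± 12.8 CPM, cluster 4 had 57.1 ± 5.77 CPM, classical monocyte-like cells 51.4 ± 14.4 CPM and non-classical monocyte-like cells 36.4 ± 14.0 CPM. Neutrophil-like cells were lowest at 5.08 ± 5.75 CPM, below all 8 others (smallest difference log2 1.68 ± 0.37 against non-classical monocyte-like cells, adjusted p = 0.000367). Parp1 passed in 28 of 36 pairs (77.8%).

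Parp1 did not pass the age test in any class. In cDC2-like cells all older pools were above, with 108, 103 and 118 CPM against 77.0, 78.1 and 87.2 CPM (log2 0.42 ± 0.16, adjusted p = 0.326), as for 10.1% of genes there. In macrophage-like cells it had 80.5, 88.3 and 105 CPM at 15 months, against 52.9, 81.7 and 84.3 CPM at 3 months (log2 0.32 ± 0.18, adjusted p = 0.683). In all kept cells it had 61.3, 79.9 and 81.0 CPM against 57.1, 69.4 and 73.2 CPM (log2 0.16 ± 0.15, adjusted p = 0.594). The pools of both ages overlap in the last 2 comparisons.

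Sirt1 stood below 50 CPM in every class over all cells. NK cell-like cells had the highest mean among the tested classes, 48.3 ± 13.2 CPM, followed by non-classical monocyte-like cells at 33.8 ± 6.77 CPM; macrophage-like cells had 17.4 ± 5.34 CPM and cDC2-like cells 17.3 ± 8.74 CPM. It passed in 8 of 36 pairs (22.2%), beside 52.2% of all such tests, and 6 of the 8 set NK cell-like cells above another class. No neighbours in the order of means passed it. Against macrophage-like cells, NK cell-like cells were higher by log2 1.06 ± 0.25 (adjusted p = 0.000408). In all kept cells Sirt1 had 25.6, 18.5 and 27.7 CPM at 15 months, against 22.3, 17.1 and 20.5 CPM at 3 months (log2 0.24 ± 0.18, adjusted p = 0.497). No class passed the age test, the lowest adjusted p being 0.603 in cDC2-like cells.

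**Figure D4:**
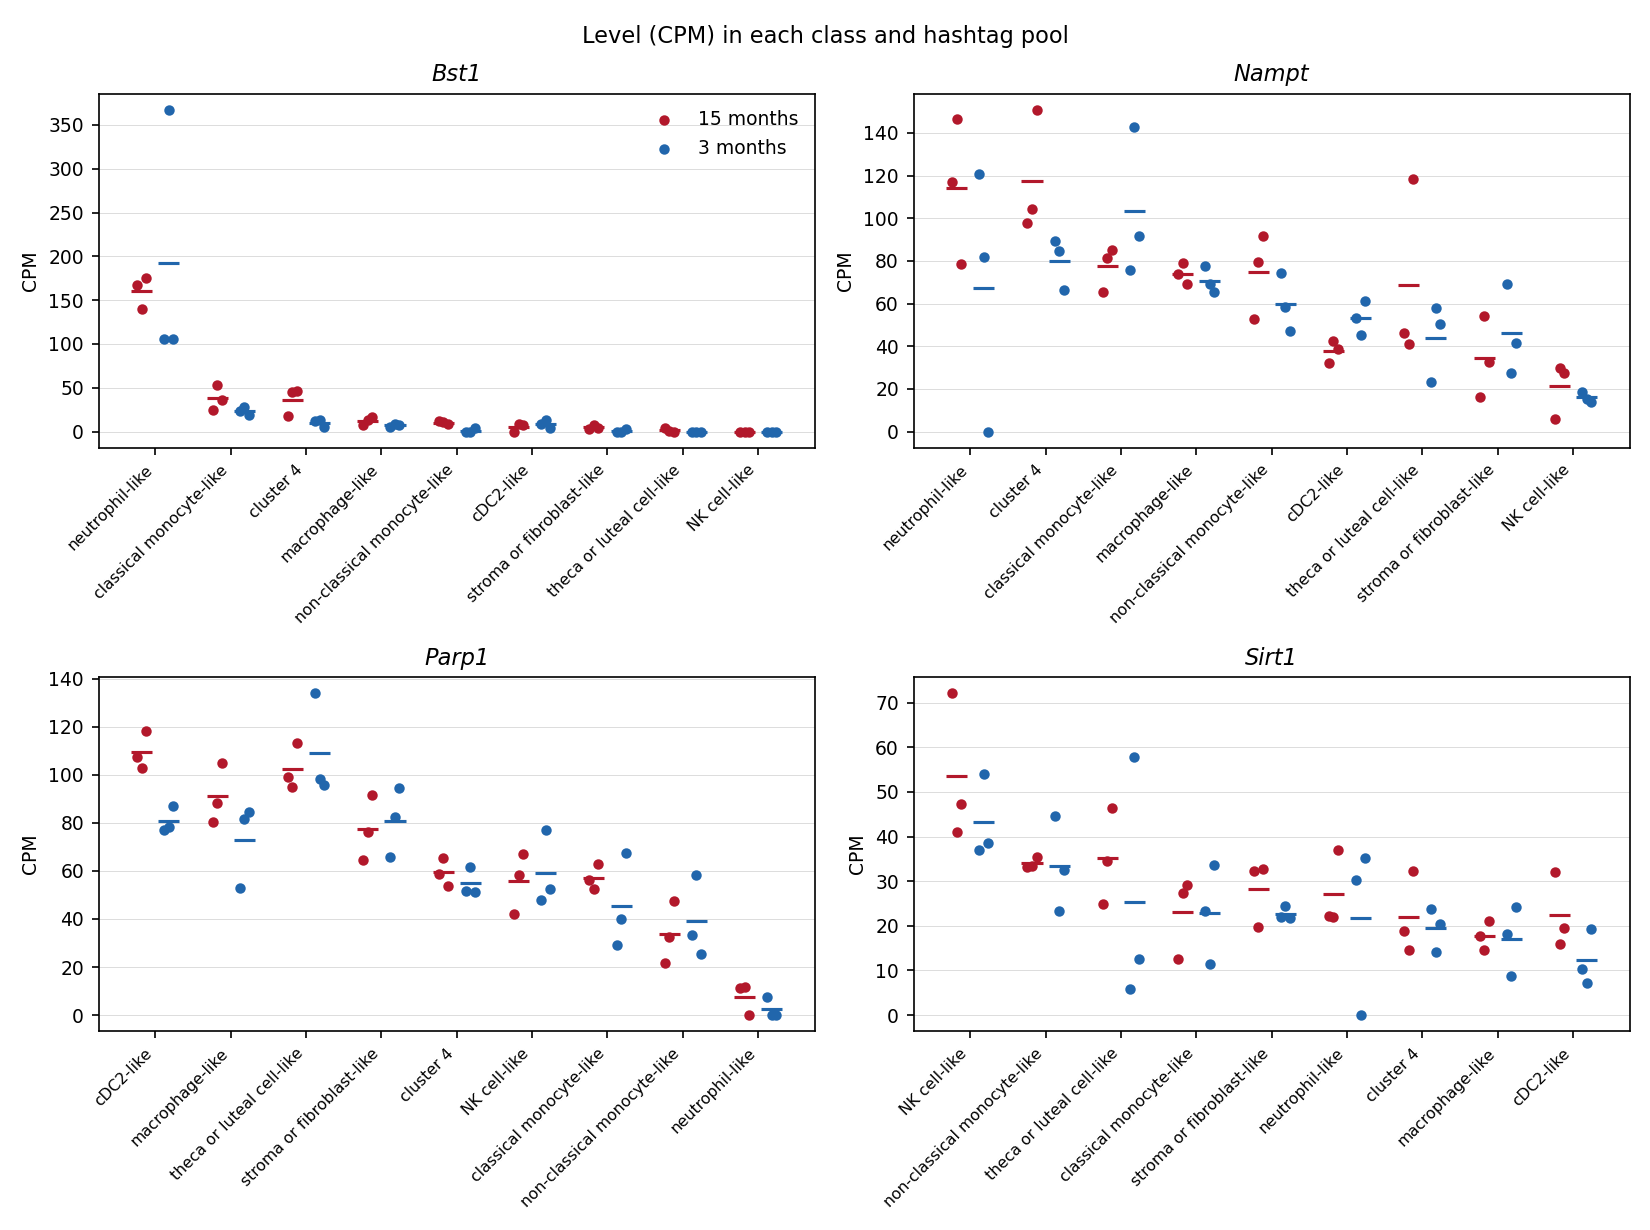
Level (CPM, vertical axis) of Bst1, Nampt, Parp1 and Sirt1 in each pool of 15 months (red, left) and 3 months (blue, right) for the 9 tested classes; points are pools and lines are means. Bst1 stands out in neutrophil-like cells at both ages (105 to 368 CPM), where Parp1 is lowest (0 to 11.8 CPM).

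Over the 9 tested classes, none of the 7 genes was called for age in any. The low-count filter let Cd38 and Bst1 be tested in 3 classes each, Nampt and Parp1 in 8 each, Sirt1 in 6, and Nmnat1 and Naprt in 0. In theca or luteal cell-like cells, where 0.0995% of genes were called, Nampt and Parp1 were the members tested. Where the pools did not overlap, Cd38 was above in 4 classes (NK cell-like, both monocyte-like classes and cluster 4), Bst1 in 2, and Nampt and Parp1 in 1 each; Nampt was below in 1, cDC2-like cells. Of the genes that passed the low-count filter, 7.55% to 10.8% lay above in this way in these classes, and 9.23% lay below in cDC2-like cells. Cd38 did not pass that filter in NK cell-like and monocyte-like cells, nor Bst1 in non-classical monocyte-like cells, so these shares do not cover them there.

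**Figure D5:**
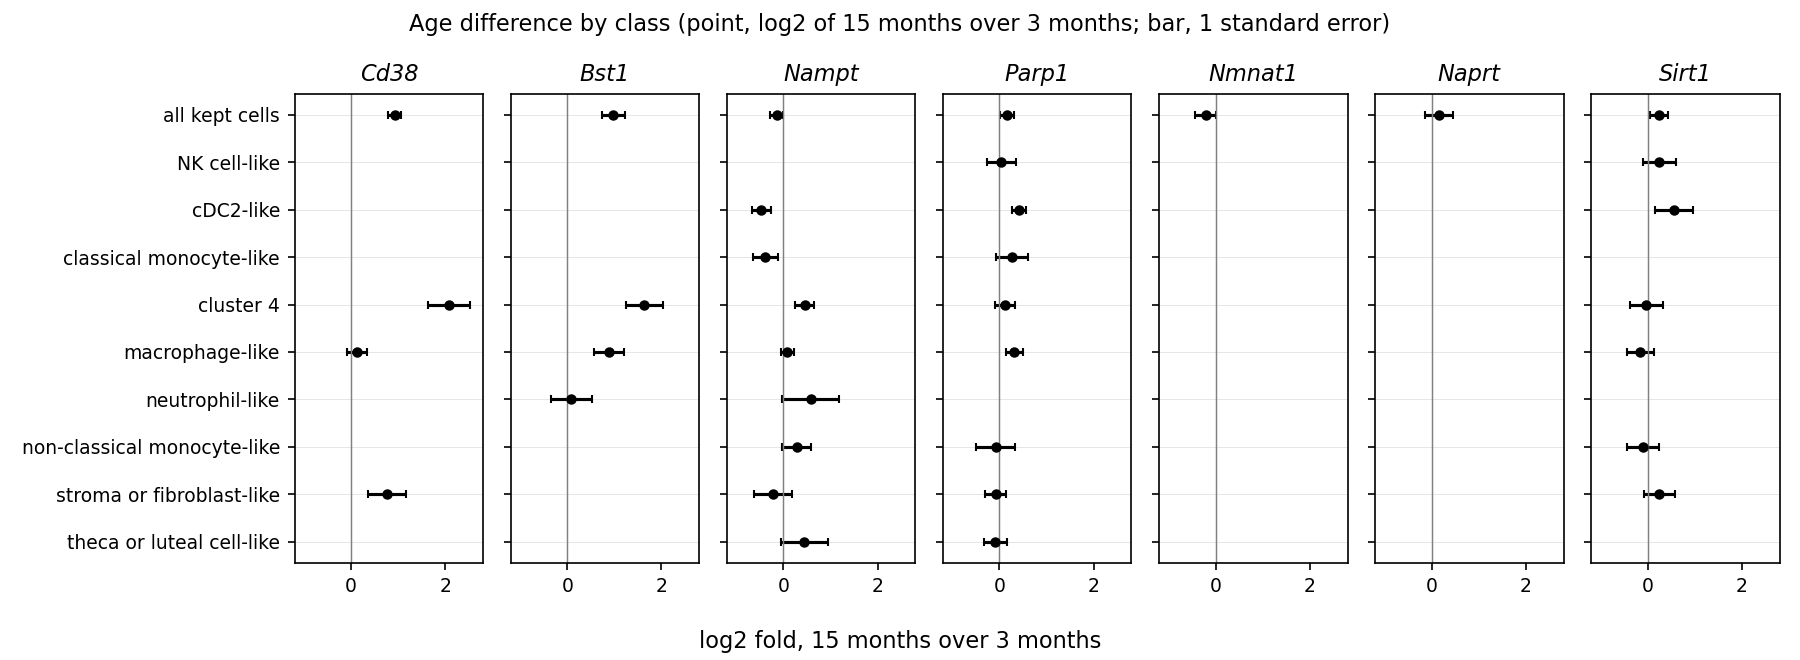
Log2 difference of 15 over 3 months (axis) with its standard error (bars) for each member that could be tested, in all kept cells and in each class. Cd38 and Bst1 lie above 0 in all kept cells (0.93 and 0.98) and in cluster 4 (2.08 and 1.64), while Cd38 in macrophage-like cells (0.13) and Nampt in all kept cells (-0.14) lie near 0.

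The wider NAD network was read through 10 lists with 89 genes, the 7 members included, of which 88 were in the matrices. In all kept cells 70 could be tested; 1 was called higher at 15 months and 0 lower, beside 0.224% of all genes tested, and the median log2 difference was 0.13, against 0.02 over all genes. The called gene was Fpr2, a formyl peptide receptor reported with CD38 in cultured inflammatory macrophages. It had 22.9, 17.5 and 25.1 CPM in the 15-month pools, against 8.30, 4.67 and 6.26 CPM in the 3-month pools (log2 1.75 ± 0.23, adjusted p = 0.0401). The pools were far apart in the mixture, but in macrophage-like cells the log2 difference of Fpr2 was 0.10 (adjusted p = 0.975). It was 0.61 in neutrophil-like cells (adjusted p = 1.000) and 0.98 in non-classical monocyte-like cells (adjusted p = 0.382).

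In macrophage-like cells 51 list genes could be tested and 0 were called, with a median of -0.01 against 0.00 over all genes. Among channels opened by CD38 products, Tpcn1, a lysosomal two-pore channel, had a log2 difference of 0.57 ± 0.23 (adjusted p = 0.545) and Trpm2, gated by ADP-ribose, 0.59 (adjusted p = 0.657), while Tpcn2, the second two-pore channel, had -0.33 (adjusted p = 0.700). Nr1h3, the liver X receptor alpha, had 0.50 (adjusted p = 0.659), while Tnf had -0.36. Of the other surface enzymes of nucleotides in the lists, Enpp1 had 0.56 and Entpd1 -0.22. The mitochondrial NAD kinase Nadk2 had 0.46, the cytosolic Nadk -0.12 and the mitochondrial NAD carrier Slc25a51 -0.06. The remaining members of the family of PARP1 that the rule names, Parp14, Parp2 and Tiparp, had -0.29, -0.20 and 0.18, and Sirt2, Sirt7 and Sirt3 had 0.12, 0.06 and 0.04. The ADP-ribose removers Oard1, Adprhl2 and Parg had -0.28, -0.29 and -0.23, the nucleoside phosphorylase Pnp -0.16, and Myc and Egr2 had -0.22 and -0.10. None of these passed the test. In cluster 4, 42 list genes were tested and 0 called, with a median of 0.26 against 0.02 over all genes.

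Genes with a similar pattern over classes were ranked by Pearson correlation of log2(CPM + 1) over the 16 classes with at least 50 cells, among 5905 genes. These are descriptions over classes that share 2 libraries. Nearest to Cd38 were S1pr1 (r = 0.78), Man1a (0.77) and Snx2 (0.77), each highest in B cell-like cells. Nearest to Bst1 were F5 (0.85), Slfn4 (0.84) and Thbs1 (0.83). For Nampt they were Brk1 (0.86), Gdap10 (0.85), which overlaps Nampt on the same strand, and Gabarap (0.83). Parp1 was closest to Pa2g4, Anapc5 and Sf3a3 (0.91, 0.91 and 0.90), and Sirt1 to Ikzf3 (0.85), Pde3b (0.82) and Tcf25 (0.82). The sparse genes gave Lrrc58 (0.86), Hyal2 (0.85) and Cavin2 (0.85) for Nmnat1, all highest in endothelial cell-like cells, and Hsd17b7, Foxo1 and Eif4a2 (0.83 for each) for Naprt, all highest in theca or luteal cell-like cells.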

How the data were processed

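The files hold raw UMI counts per gene and barcode, and counts of 3 hashtags, as the authors deposited them for 2 libraries of Chromium 3' v3.1 chemistry. Cell Ranger 7.0.0 and FastQC 0.11.4 are listed in the submitters' processing notes, while the matrix headers name Cell Ranger 4.0.0; the build was mm10. Barcodes were kept with at least 500 genes, 1000 gene UMIs and at most 10% mitochondrial UMIs, and assigned to a pool where the top hashtag had at least 10 counts and 3 times the next. Kept UMIs were 5738569, 25840364 and 8183676 in the 15-month pools and 5824895, 4627201 and 8726459 in the 3-month pools. Cells were clustered with scanpy 1.11.5 (2000 variable genes without the NAD lists, 30 components, 15 neighbours, Leiden resolution 0.6, no integration). A class was named, by a rule set after the clusters were seen, where at least 3 markers had a UMI in 20% of cells, at least 2 were among the top 10 genes by fold, more than of any other set, and the score was at least 0.5. Doublets were not removed: scrublet's automatic threshold called 1 cell per library, so leaving out the 6% highest scores was tried instead.

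Counts were summed per pool and class and tested with edgeR 4.0.16 (quasi-likelihood, filterByExpr, TMM, Benjamini-Hochberg over all genes tested in the class, threshold 0.05) in R 4.3.3. Class pairs and differences of age effects had the pool as a block. Shares of cells used each cell thinned to 2000 UMIs, with shallower cells left out. Their intervals took the cells of all pools of an age together. Members were named in every class; other list genes where called, otherwise up to 3 per list with the smallest p in macrophage-like cells. A gene that this rule names is not reported here. DESeq2 1.42.0, hashtag calls from Seurat 5.3.0 and other alternatives are given in the closing section. The members and lists were chosen with earlier results of these data known. The age test was tested on simulated data with known changes.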

Additional observations from a re-analysis of the deposited data

How the results depend on the processing

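In all kept cells 0 members were called by the main edgeR test, 2 by DESeq2 (Cd38 and Bst1) and 1 with no filter on low counts (Cd38). In cluster 4 the count was 0 in the main test, 1 with DESeq2, 2 with no filter, 1 with the hashtag number as a replicate block (Cd38, adjusted p = 0.0281), 1 without cells over 1% haemoglobin UMIs, and 0 to 1 with pools left out in turn. The pools of both ages share hashtag numbers, and the labels do not pair them. Same-numbered pools correlated at -0.042, 0.016 and 0.080 in all kept cells; all 3 correlations were over 0.1 in NK cell-like (0.172, 0.152 and 0.237) and classical monocyte-like cells (0.346, 0.157 and 0.329), where the block called 82 and 34 genes and 0 members, and in no other tested class. Of 512 alternative values of a member's age difference, 471 kept direction and call, 10 became called and 31 reversed. Reversals, all of values that were not called, were Cd38 in macrophage-like cells (log2 -0.0529 with HTODemux hashtag calls, -0.20 in cluster 7 alone, -0.13 to 0.29 with pools left out), Sirt1 in cluster 4 (0.0759 with DESeq2, 0.0827 with HTODemux, 0.18 with the strict cell filter, 0.0371 without haemoglobin-rich cells, 0.0106 without the highest scrublet scores, 0.26 at Leiden resolution 1.0, -0.29 to 0.31 with pools left out), Sirt1 in macrophage-like cells (0.039 with the replicate block, -0.36 to 0.29 with pools left out), Parp1 in NK cell-like cells (-0.014 with DESeq2, -0.0569 with the block, -0.0867 to 0.19 with pools left out), Bst1 in neutrophil-like cells (-0.00389 with DESeq2, -0.33 to 0.58 with pools left out) and Nampt in neutrophil-like cells (-0.12 at Leiden resolution 1.0). With pools left out the sign also turned for Naprt in all kept cells (-0.0734 to 0.39), Parp1 (-0.34 to 0.15) and Sirt1 (-0.23 to 0.15) in non-classical monocyte-like cells, Parp1 (-0.20 to 0.0861) and Nampt (-0.76 to 0.058) in stroma or fibroblast-like cells, and Parp1 (-0.21 to 0.0365) and Nampt (-0.0648 to 0.79) in theca or luteal cell-like cells. The cause was not tested. Over all genes, calls in all kept cells numbered 27, against 439 with DESeq2, 93 with no filter, 15 with the block and 0 to 141 with pools left out; in macrophage-like cells 7, against 29, 204 and 26; in cluster 4 82, against 94, 578 and 42. Leaving out scrublet's automatic doublet calls was not run, since its threshold did not work. At 3 months, 18 B cell-like and 26 cycling cells limit what can be said of Cd38 there.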
